A study of Mus musculus with 112 samples.

Results

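The adipocyte gene module is a list of 37 genes known from fat cells, read here in mouse skin and in the tumours that arose in it. Its members were found by gene symbol among probe sets with 1 symbol, and 35 of the 37, out of 18772 genes measured in all, had a value; Cfd and Adrb3 did not. The samples were 112 Affymetrix arrays of total RNA from 15 male mice of a cross between Mus spretus x FVB hybrids and FVB. All mice received the mutagen DMBA once at 8 weeks of age and then the tumour promoter TPA 2 times per week, had primary tumours resected above 1 cm, and carried metastases when killed. The genotypes were HrasKO (6 mice, 37 arrays), labelled as a knockout of the oncogene Hras, and wild type (WT, 9 mice, 75 arrays). The sources used here do not give the allele or the tissues it acts in, and the level of Hras was not analysed here.

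The groups were dorsal skin of the same treated mice (15 arrays, 6 HrasKO and 9 WT mice), papilloma (27 arrays, 4 HrasKO and 9 WT mice), carcinoma and metastasis. Carcinomas were squamous cell carcinomas (SCC; 10 arrays, 8 WT mice), spindle carcinomas, in which tumour cells have lost their epithelial form (12 arrays, 4 HrasKO and 6 WT mice), and 3 of mixed histology. Metastases carried the same labels, with 24 SCC arrays (3 HrasKO and 8 WT mice), 20 spindle arrays (4 HrasKO and 3 WT mice) and 1 mixed array. They came from lymph node (24 arrays), lung (10), liver, spleen and thymus (3 each), kidney (1) and a site labelled dorsal (1). Arrays of mixed histology entered no comparison, and 1 of them appears among the single values by site. All levels are log2 intensities, in which 1 unit is a 2-fold difference, and tumours of a mouse were averaged, so that the mouse was the replicate. The correlation over all genes between any pair of arrays lay between 0.80 and 0.994. Each array was also set, by its mean correlation, against the skins, papillomas, SCC tumours and spindle tumours of other mice. The SCC and spindle classes pooled carcinomas with metastases of all sites. Of the tumour arrays, 24 correlated better with another class than with their own, among them all 10 SCC carcinomas, which were nearest to papillomas, and 4 papillomas nearest to spindle tumours.

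White adipocytes store triglyceride in a lipid droplet, which the perilipins and Cidec coat and enlarge, and release fatty acids from it through a chain of lipases. Pparg and Cebpa are the transcription factors that install this program and hold it in place, and mature cells secrete adiponectin (Adipoq), leptin (Lep) and, in mice, resistin (Retn). In mouse skin these cells form a layer under the dermis, above the panniculus muscle, and the layer grows and shrinks with the hair cycle. Brown adipocytes share most of this program and burn fat through the uncoupling protein Ucp1.

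RefSeq promoters (assembly GRCm38.p6) were matched for 26 of the 37 genes, in 35 windows around a start site, each with 250 bases before it. Those of Plin1, Lep, Cidec and Pparg are shown as far as the start site, because they hold the members' matches to TTGCNNAA, letters of the site bound by C/EBP proteins, on either strand. Capitals mark the matches, and each sequence runs 5′ to 3′ on the strand of its gene. The windows are chr7:79732777-79733026 (minus strand) for Plin1, chr6:29059971-29060220 (plus) for Lep, chr6:113434765-113435014 (minus) for Cidec and chr6:115421816-115422065 (plus) for Pparg.
Plin1: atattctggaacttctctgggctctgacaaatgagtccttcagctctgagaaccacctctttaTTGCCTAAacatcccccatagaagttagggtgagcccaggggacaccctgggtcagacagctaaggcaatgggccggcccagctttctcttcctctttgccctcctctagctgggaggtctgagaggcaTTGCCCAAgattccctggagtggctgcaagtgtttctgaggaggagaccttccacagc
Lep: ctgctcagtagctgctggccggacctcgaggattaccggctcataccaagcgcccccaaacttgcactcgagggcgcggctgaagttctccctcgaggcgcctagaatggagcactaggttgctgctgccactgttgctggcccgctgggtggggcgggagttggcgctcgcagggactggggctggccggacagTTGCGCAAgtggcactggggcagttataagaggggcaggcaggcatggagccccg
Cidec: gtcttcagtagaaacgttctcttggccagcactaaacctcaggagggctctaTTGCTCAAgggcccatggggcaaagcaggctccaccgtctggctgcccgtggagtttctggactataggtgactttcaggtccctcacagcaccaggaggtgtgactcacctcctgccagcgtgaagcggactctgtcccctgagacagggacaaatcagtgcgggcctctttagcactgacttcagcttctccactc
Pparg: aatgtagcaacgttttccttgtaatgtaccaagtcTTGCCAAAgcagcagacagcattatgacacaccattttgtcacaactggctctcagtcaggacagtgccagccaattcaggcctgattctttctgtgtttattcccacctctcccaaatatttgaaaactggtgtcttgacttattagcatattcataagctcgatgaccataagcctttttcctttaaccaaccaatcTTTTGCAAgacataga
Counted from the start site, the matches lay at -187 and -58 in Plin1, at -55 in Lep, at -198 in Cidec, and at -215 and -16 in Pparg. On both strands, TTGCNNAA was found in 11.43% of the 35 member windows and in 10.8% of all 32851 windows of this length, so the share among members was near that of all promoters. TATAAA was found in 11.43% of member windows (Agt, Cebpa, Cyp2e1 and another start site of Pparg) and in 13.62% of all windows. The direct repeat of AGGTCA with a single-base spacer, the form of the site bound by PPAR-RXR dimers, and the same repeat of AGGNCA were found in 0 member windows and in 0.04% and 0.38% of all windows.

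Adipocyte genes were high in dorsal skin and varied widely between its 15 arrays. The mean of 9 defining genes (Adipoq, Plin1, Plin4, Cidec, Fabp4, Retn, Lep, Lipe and Adig) was lowest at 6.21, had its median at 8.77 and reached 10.82. The droplet protein Cidec ran over a wide range in skin, with its lowest value at 5.99, its median at 10.34 and its highest at 12.41. Adipoq ran between 4.55 and 11.01, Retn between 5.36 and 11.67, and Plin1 between 4.36 and 10.95. Other members had narrow ranges in the same skins, such as Cd36 (10.55 to 11.99), Plin4 (8.04 to 10.39) and Cebpa (9.17 to 10.46). Each member was set against the mean of the defining genes, itself left out. Across the 15 skins, 17 of the 35 members correlated above 0.8 with this mean. Adipoq (r = 0.986), Plin1 (0.978), Cidec (0.965) and Lipe (0.963), the hormone-sensitive lipase, stood at the top. Slc2a4, the insulin-regulated glucose transporter (0.386), the monoglyceride lipase Mgll (0.249), ATP citrate lyase Acly (0.087) and Cebpa (0.012) did not follow it. Members above 0.8 numbered 12 over the 27 papilloma arrays, 0 over the 25 carcinoma arrays and 10 over the 45 metastasis arrays. These are Pearson values over single arrays, of 13 mice for papilloma and 15 each for carcinoma and metastasis. The rank correlations (Spearman) of the 12 members in papilloma were all lower. Ces1d had the highest (0.830, Pearson 0.871), while Adipoq had 0.645 (0.956), Lep 0.490 (0.950) and Retn 0.426 (0.942). Of the defining genes themselves, Fabp4 (Pearson -0.07) and Lipe (0.10) did not follow the mean of the others over the papillomas. Over the carcinomas they had 0.48 and 0.52. In bulk tissue, fewer adipocytes and less RNA per adipocyte cannot be told apart.

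**Figure D1:**
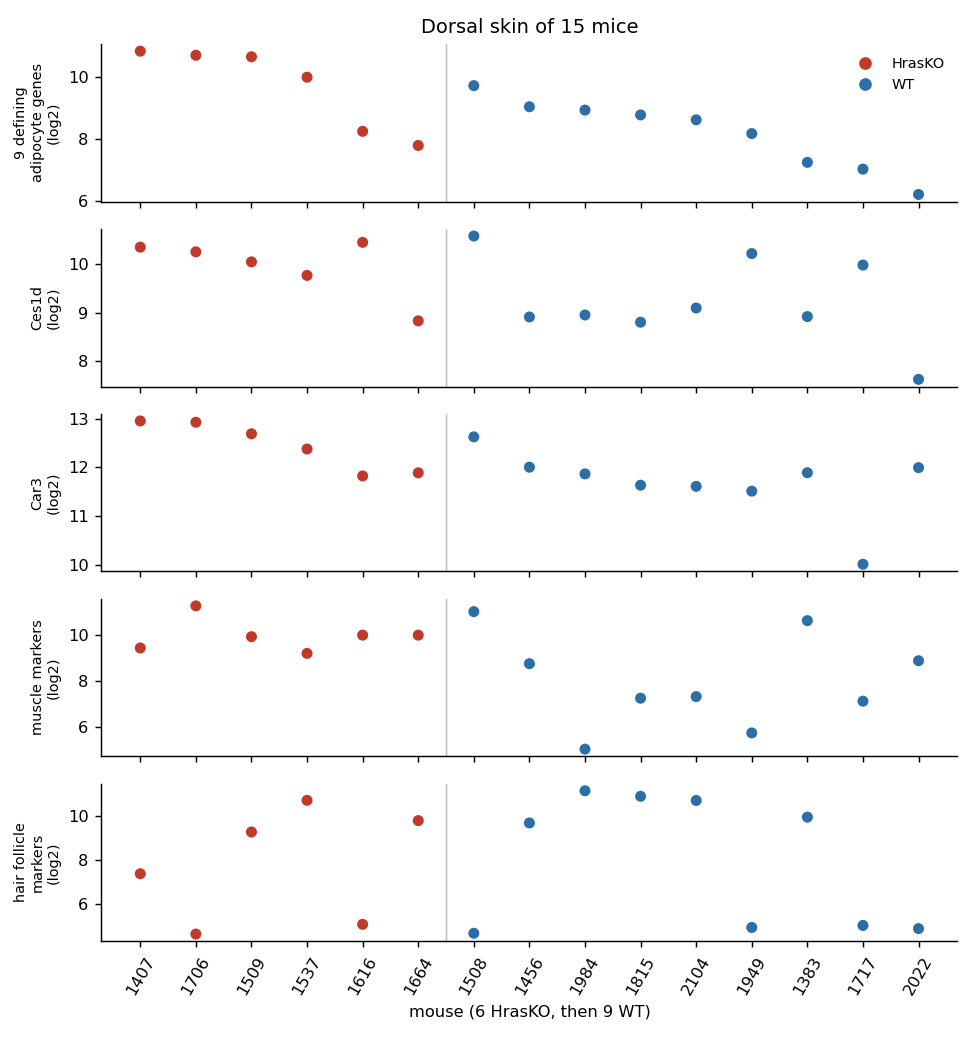
Log2 intensity in the dorsal skin of each of the 15 mice (6 HrasKO on the left in red, 9 WT on the right in blue) of the mean of 9 defining adipocyte genes, Ces1d, Car3, the mean of 14 skeletal muscle markers and the mean of 14 hair follicle markers. The defining genes ran between 6.21 and 10.82, while hair follicle markers fell into a low set of 6 skins (4.64 to 5.08) and a high set of 9 (7.37 to 11.12).

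The plot of skin values by mouse sets the adipocyte genes beside markers of other skin layers. The 30 measured genes of a list of other adipocyte genes correlated at 0.81 with the defining genes, whereas the 14 skeletal muscle genes correlated at 0.28 and the 14 hair follicle genes at 0.13 (15 arrays each, as a description). Hair follicle genes were low in the skins of mice 1508, 1616, 1706, 1717, 1949 and 2022, which included the skin with the lowest defining mean (2022) and 1 of the highest (1706, 10.69). The genes outside the module with the highest correlation to the defining mean over the 15 skins were the thyrotropin receptor Tshr (r = 0.975), the amino acid transporters Slc1a5 (0.955) and Slc1a3 (0.942), the retinol carrier Rbp4 (0.944), Ephx2 (0.928), Syp (0.925), the adiponectin receptor Adipor2 (0.924), Rgs7 (0.922), Opn3 (0.920) and Trarg1 (0.918), a partner of Slc2a4 traffic. With so many genes searched, these are the top of a ranking and carry no test.

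In papillomas of 13 mice, set against each mouse's own skin, 29 of the 35 members fell and 1 rose (limma, two-sided, Benjamini-Hochberg adjusted p under 0.05). Among all 18772 genes, 42.6% were called either way, 18.1% as lower and 24.5% as higher. The median log2 difference of the members was -1.68, against 0.05 for all genes. Papilloma and skin values did not overlap for 3 members and for 2.02% of all genes. Both transcription factors fell, as did all 5 secreted factors, 5 of 7 droplet and lipolysis genes, 4 of 5 uptake genes, 5 of 7 metabolic enzymes and 8 of 9 of the remaining members. In batch 1 alone, which held 13 of the 15 mice, 28 members were called.

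Among the transcription factors, Pparg had values between 5.95 and 9.84 (median 7.67) in the 13 papilloma mice and between 8.85 and 10.87 (median 10.01) in the 15 skins, and it fell by 2.22 (SE 0.28, adjusted p = 2.96e-05, limma), in 12 of 13 mice. Cebpa fell by only 0.25 (SE 0.09, adjusted p = 0.0378), in 9 of 13 mice, with overlapping groups. Adiponectin, the hormone that raises insulin sensitivity, ranged between 4.34 and 5.98 (median 4.67) in papillomas and between 4.55 and 11.01 (median 7.93) in skin. Its values overlapped because a few skins were as low as the tumours, yet it was lower in 13 of 13 mice (-2.96, SE 0.48, adjusted p = 2.11e-04). Resistin fell by 3.49 (SE 0.50) and the satiety hormone leptin by 2.53 (SE 0.47). Angiotensinogen (Agt, -1.51) and Angptl4 (-1.52), an inhibitor of lipoprotein lipase, fell less.

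Of the droplet genes, Plin4 separated the groups: it lay between 4.77 and 7.01 (median 5.75) in papilloma and between 8.04 and 10.39 (median 8.89) in skin, without overlap. Cidec, which enlarges droplets by fusing them, averaged 6.20 ± 0.88 in papilloma and 9.96 ± 2.10 in the matched skins (SD, n = 13 each), and fell in 13 of 13 mice by 3.75 (SE 0.49, adjusted p = 3.55e-05). The coat protein that gates lipolysis, Plin1, fell too (-2.96, SE 0.51). The lipases did not move as one. Pnpla2, which takes the first fatty acid off triglyceride, fell by 1.17 (SE 0.23) and Mgll, which takes off the last, fell by 1.68 (SE 0.26), each in 13 of 13 mice. The hormone-sensitive lipase Lipe, which acts between them, averaged 10.07 ± 0.63 in papilloma and 10.17 ± 0.83 in skin (difference -0.09, SE 0.32, adjusted p = 0.837). G0s2, an inhibitor of Pnpla2, was not called (0.68, SE 0.37, adjusted p = 0.161).

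Fabp4, the fatty acid carrier often used as an adipocyte marker, was the exception among the uptake genes. It ranged between 8.87 and 11.89 (median 11.46) in papilloma and between 9.58 and 11.87 (median 11.05) in skin, and the difference of 0.23 (SE 0.34, adjusted p = 0.615) was not called. Its neighbours in the pathway fell in 13 of 13 mice. The fatty acid transporter Cd36 averaged 7.88 ± 1.36 in papilloma and 11.24 ± 0.48 in skin (-3.36, SE 0.37, adjusted p = 1.14e-05), without overlap. Lipoprotein lipase (Lpl), which frees fatty acids from circulating lipoproteins, fell by 3.38 (SE 0.35). Slc2a4 (-1.29, SE 0.33) and the glycerol channel Aqp7 (-2.39, SE 0.55) fell in 11 of 13 mice.

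Of the 7 enzymes, 5 fell and 2 were not called. Glycerol-3-phosphate dehydrogenase (Gpd1), which makes the backbone of triglyceride, fell by 3.05 (SE 0.36, adjusted p = 1.6e-05). Falls were also called for phosphoenolpyruvate carboxykinase (Pck1, -2.33), the lipogenic regulator Thrsp (-1.66), pyruvate carboxylase (Pcx, -1.32) and malic enzyme (Me1, -0.67). Acly, which makes acetyl-CoA for fatty acid synthesis in many cell types, averaged 9.83 ± 0.33 in papilloma and 9.57 ± 0.52 in skin (0.26, SE 0.14, adjusted p = 0.153). The acyltransferase Agpat2 was likewise not called (0.21, SE 0.18, adjusted p = 0.372).

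The largest absolute differences among the members were in the last role group, at carbonic anhydrase 3 (Car3) and the carboxylesterase Ces1d, a triglyceride hydrolase of fat and liver. Ces1d lay between 4.57 and 7.05 (median 5.41) in papilloma and between 7.63 and 10.58 (median 9.77) in skin, without overlap (-4.00, SE 0.25, adjusted p = 2.18e-07). Car3 lay between 4.74 and 10.17 (median 7.28) in papilloma and between 10.01 and 12.95 (median 11.89) in skin. Its highest papilloma value thus just passed its lowest skin value. Adig, a small adipocyte protein (-2.68), the galectin Lgals12 of the droplet (-2.49), Cyp2e1 (-2.98), the amine oxidase Aoc3 (-1.56), Ces1f (-1.40) and the activin receptor Acvr1c (-0.93) fell as well. Ucp1 was the only member called higher, at 4.23 ± 0.30 in papilloma and 3.95 ± 0.15 in skin (0.27, SE 0.09, adjusted p = 0.0245).

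Some of the smallest differences rested on single mice. The Ucp1 call was lost without mouse 1456 (adjusted p = 0.0526) or 1509 (0.0525), and the Acvr1c call without 1407, 1508, 1509 or 1706 (0.0522 to 0.0587). The Cebpa call was lost without 1407, 1456, 1508, 1509, 1664, 1815, 1949 or 2104 (0.0507 to 0.0786) and, without mouse as a block, had an adjusted p of 0.251.

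**Figure D2:**
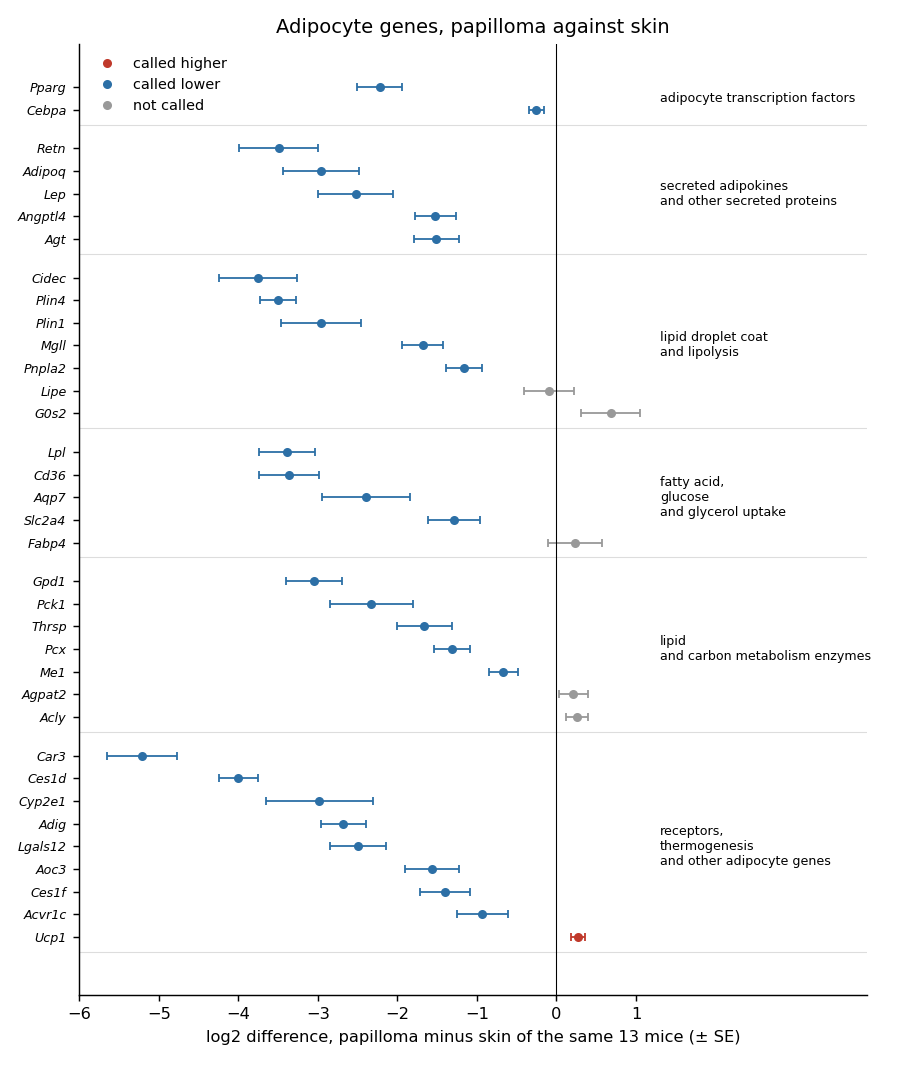
Log2 difference between papilloma and skin of the same mouse (mean of 13 mice, bars are SE) for the 35 measured members, ordered by role; blue marks members called lower, red called higher and grey not called. Most points lie well below 0, Car3 at -5.21 being the lowest, and Fabp4, Lipe, G0s2, Agpat2 and Acly lie near or above 0.

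Markers of other skin layers fell in the same papillomas. All 14 skeletal muscle markers were lower (median -2.99), with a mean level between 4.71 and 7.75 in papilloma mice and between 5.01 and 11.29 in skins. Among sebocyte markers 7 of 9 were lower and 1 higher (median -3.17), and 12 of 14 hair follicle markers were lower (median -2.91). Fewer changed among endothelial (4 of 9 lower) and fibroblast markers (2 of 8 lower), and 0 of 9 macrophage, 0 of 6 keratinocyte and 0 of 5 B cell markers were called. The part of these cell types in the fall of the adipocyte genes was not tested. Of markers for organs that hold metastases, few were called in papilloma: 2 of 8 lung markers lower, 1 of 10 liver markers lower and 1 higher, 1 of 6 kidney markers higher, and 1 of 5 thymus markers in each direction.

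Genes of the adipocyte program outside the module fell more often than they rose. Of 30 measured, 16 fell and 3 rose, with a median of -0.65. The leptin receptor Lepr fell by 2.30 (SE 0.15, adjusted p = 3.09e-07), the natriuretic peptide clearance receptor Npr3 by 2.07 (SE 0.38) and Trarg1 by 1.95, followed by the phosphatidate phosphatase Lpin1 (-1.84), the desaturase Scd1 (-1.73), Klf15 (-1.43), the insulin signalling genes Irs1 (-1.32) and Insr (-0.99), and the triglyceride synthesis genes Gpam (-1.27) and Dgat1 (-0.88). Fatty acid synthase (Fasn) fell by 0.46. The preadipocyte factor Dlk1 (0.68), the early adipogenic factor Cebpb (0.50) and Adipor1 (0.17) rose. Among 8 brown fat genes, 7 fell and Dio2, which activates thyroid hormone, rose by 0.72, with a median of -1.29. Ucp1 itself was only 3.68 to 4.14 in skin, and Cidea is also among the sebocyte markers. Over the 15 skins, the mean of the brown fat genes correlated at 0.39 with that of the defining genes. The part of sebocytes and muscle in the fall of these genes was not tested.

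Single papillomas differed. The mean of the defining genes was 5.34 to 6.28 in 22 of the 27 papilloma arrays and 7.59 to 8.56 in the other 5, from mice 1984, 1407, 1949, 1456 and 1706. In 4 of these 5 arrays the muscle marker mean was also high (8.85 to 10.63), and in the fifth, from mouse 1456, it was 4.97. That array had the highest hair follicle marker mean of the 27 papillomas (8.39), and the array of mouse 1706 had the next (7.38). The papillomas of mouse 1815 had high muscle markers (8.28 and 7.22) with low defining genes (5.61 and 5.60), so the 2 sets of genes did not always go together. The keratinocyte marker mean was 5.11 and 5.69 in the papillomas of mouse 1815 and 6.39 in papilloma 2 of mouse 1984, the array with the highest defining mean (8.56), while the other 24 papillomas had 10.59 to 12.33. The part of these markers in the spread between papillomas was not tested. The 5 papilloma arrays nearest to another class were 1 each of mice 1407, 1508 and 1984 and 2 of 1815; without the arrays closer to another class, papillomas had 28 members lower and 1 higher than skin.

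SCC carcinomas, from 8 WT mice, had 25 members lower and 2 higher than the skin of the same mice, with 30.6% of all genes called either way, 15% lower and 15.6% higher. The median member difference was -1.43, against 0.06 for all genes. Pparg (-2.49, SE 0.25, adjusted p = 2.04e-04) and Cebpa (-0.61, SE 0.13, adjusted p = 0.00719) fell in 8 of 8 mice. Plin4 averaged 5.30 ± 0.56 in SCC carcinoma and 8.72 ± 0.66 in skin (SD, n = 8 each), and Ces1d averaged 4.96 ± 0.39 in SCC carcinoma and 9.29 ± 0.94 in skin. Each fell in 8 of 8 mice without overlap. Groups without overlap were found for 6 members in all and for 7.35% of all genes.

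Fabp4 and G0s2 rose in SCC carcinomas, in 8 of 8 mice each. Fabp4 lay between 10.48 and 11.96 (median 11.19) in the carcinomas and averaged 11.26 ± 0.55 there and 10.55 ± 0.60 in skin (0.71, SE 0.15, adjusted p = 0.00712). This call was lost with single arrays as the units (adjusted p = 0.0670) and without mouse as a block (0.0546). G0s2, the lipase inhibitor, averaged 7.45 ± 0.81 in SCC carcinoma and 6.28 ± 0.26 in skin (1.17, SE 0.26, adjusted p = 0.00879). The members not called were Lipe (0.27, adjusted p = 0.127), Acly, Agpat2, Ucp1, Angptl4, Aoc3, Slc2a4 and Ces1f. Calls for Plin1, Lep, Aqp7, Pck1 and Acvr1c were each lost without mouse 1984 (adjusted p = 0.0590, 0.0820, 0.0973, 0.0699 and 0.0656, in this order) and also without some other single mice. The same held for Agt and for Pcx (0.0536 without 1984). In batch 1 alone 21 members were called.

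Spindle carcinomas, from 10 mice, had 29 members lower than skin and 0 higher, with 46.7% of all genes called, 19.2% lower and 27.5% higher. The median member difference was -2.33, against 0.08 for all genes. Here Fabp4 fell, by 2.31 (SE 0.52, adjusted p = 0.00356), in 9 of 10 mice, with values between 6.43 and 10.78 (median 8.81) in the carcinomas. Lipe fell too, by 1.47 (SE 0.40, adjusted p = 0.0102). Lpl averaged 6.62 ± 0.78 in spindle carcinoma and 10.73 ± 1.02 in skin (SD, n = 10 each), without overlap. Such a separation was found for 7 members in all and for 6.76% of all genes. The other large falls were Ces1d (-4.66), Plin4 (-4.24), Cidec (-4.22), Retn (-3.97), Car3 (-3.86), Lgals12 (-3.74) and Adipoq (-3.29). Acly (-0.01, SE 0.15), Agpat2 (0.13), G0s2 (-0.02), Ucp1 (-0.03), Angptl4 (-0.22) and Acvr1c (-0.84) were not called. In batch 1 alone 29 members were called. The call for Aoc3 (-2.05, adjusted p = 0.00359) was lost without the carcinomas titled RegCA, a term the labels do not explain (adjusted p = 0.0791).

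In these carcinomas too, markers of other cells moved. Muscle markers were lower for 9 of 14 in SCC carcinoma and 13 of 14 in spindle carcinoma. Macrophage markers were higher for 0 of 9 in SCC carcinoma and 7 of 9 in spindle carcinoma (mean 8.04 to 10.25 in spindle carcinoma, 8.08 to 10.27 in skin), and all 6 keratinocyte markers were lower in spindle carcinoma (5.61 to 10.05, against 10.68 to 12.17 in skin). Their part in the results was not tested. Of the 30 other adipocyte genes, 16 fell and 1 rose in SCC carcinoma, and 18 fell and 3 rose in spindle carcinoma. Over the 25 carcinoma arrays, the mean of the defining genes correlated at -0.05 with these other adipocyte genes. It correlated at 0.63 with keratinocyte and 0.64 with sebocyte markers. Over the papilloma arrays these values were 0.80, -0.06 and 0.40, in this order. These are Pearson values. In the same order, the rank correlations (Spearman) were 0.02, 0.67 and 0.63 over the carcinomas and 0.33, 0.04 and 0.58 over the papillomas. All comparisons with skin share skins, so their counts are not independent of each other.

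**Figure D3:**
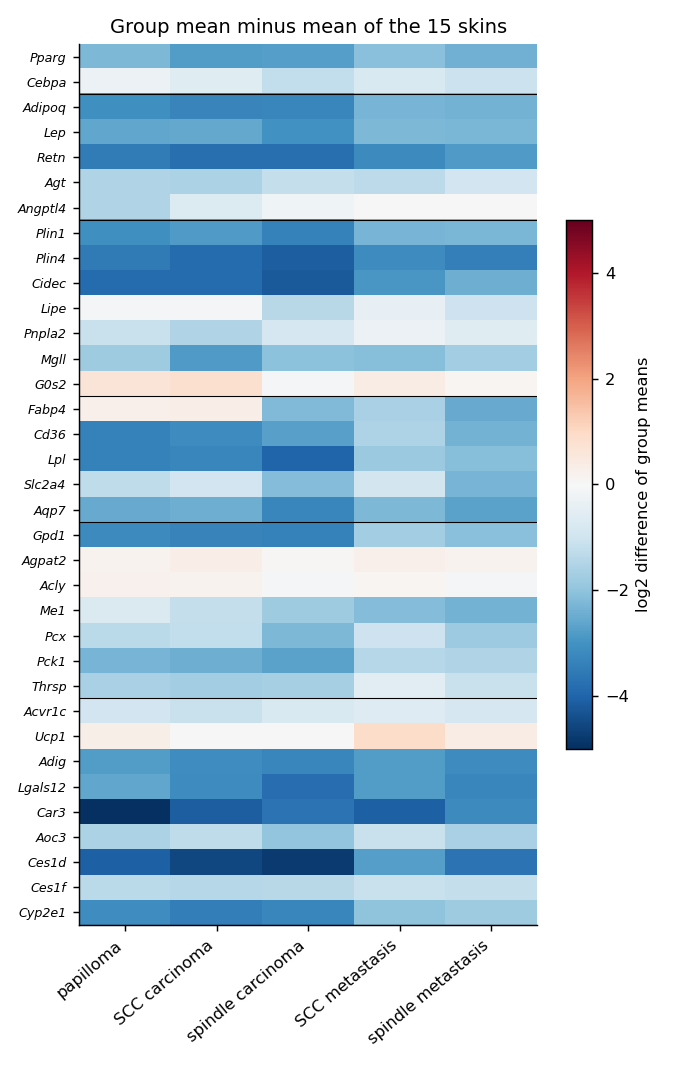
Mean log2 intensity of each tumour class minus the mean of the 15 skins, for the 35 measured members grouped by role (colour scale -5 to 5). Most members are below skin in all 5 tumour classes, while Acly and Agpat2 stay near 0 and Fabp4 is near skin in papilloma and SCC carcinoma and below it in the other 3 classes.

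Between tumour types the differences were few, and Fabp4 led them. SCC carcinomas and papillomas of the same 8 mice differed in 0 members (limma with Benjamini-Hochberg) and in 0.202% of all genes (0.192% lower and 0.0107% higher). An unadjusted p under 0.05 was found for 9 members and for 1768 of all 18772 genes. The lowest adjusted p was that of Cebpa, at 9.27 ± 0.20 in SCC carcinoma and 9.73 ± 0.42 in papilloma (-0.46, SE 0.13, adjusted p = 0.229). Without mouse 1508 the Cebpa difference was called (-0.58, adjusted p = 0.0425).

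Spindle carcinomas had 6 members lower than the papillomas of the same 9 mice, where 23.8% of all genes were called either way, 11.2% lower and 12.6% higher. Fabp4 averaged 8.91 ± 1.24 in spindle carcinoma and 10.98 ± 0.97 in papilloma, and Lgals12 averaged 4.48 ± 0.42 in spindle carcinoma and 5.73 ± 0.68 in papilloma. Both fell in 9 of 9 mice (Fabp4 -2.07, SE 0.36, adjusted p = 0.00847; Lgals12 -1.25, SE 0.20, adjusted p = 0.00752). Lipe (-1.01), Cebpa (-0.80), Me1 (-0.98) and Slc2a4 (-0.82) were the others. The lipase inhibitor Angptl4 was higher in 7 of 9 mice and missed the threshold (1.25, SE 0.42, adjusted p = 0.0546). All 6 keratinocyte markers were lower (median -3.31) and 4 of 9 macrophage markers higher, and their part in the result was not tested.

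This count depended on which tumours entered. Only Fabp4 and Lgals12 were called in batch 1 alone, which is also the set without mouse 1664, and 2 members were called without mouse 1383 or 1509 and 3 without 1407, against 10 without 1815. Without the carcinomas titled RegCA, 0 members were called (Fabp4 and Lgals12 both at adjusted p = 0.0822). Without the arrays closer to another class, 10 members were lower and 3 higher, the higher ones being Car3 (3.05), Angptl4 (2.02) and Pnpla2 (0.62).

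Between the carcinoma types of WT mice (6 spindle, 8 SCC), 1 member was lower and 1 higher, with 7.56% of all genes called, 4.09% lower and 3.47% higher. Fabp4 averaged 9.44 ± 0.93 in spindle and 11.26 ± 0.55 in SCC carcinoma (-1.86, SE 0.38, adjusted p = 0.0165). Pnpla2 was higher in spindle carcinoma, at 9.30 ± 0.60, with 8.49 ± 0.14 in SCC carcinoma (0.81, SE 0.22, adjusted p = 0.0377, limma). Its groups did not overlap, which was so for 1 member and for 0.645% of all genes. Both calls hung on few mice. Neither Fabp4 nor Pnpla2 was called without mouse 1383, 1508, 1984 or 2022, Pnpla2 was not called without 1456, 1717 or 2104, and 7 members were called without 1949. With mouse as a fixed block in the mice that had both types, 0 members were called, and with both genotypes together 9 were.

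**Figure D4:**
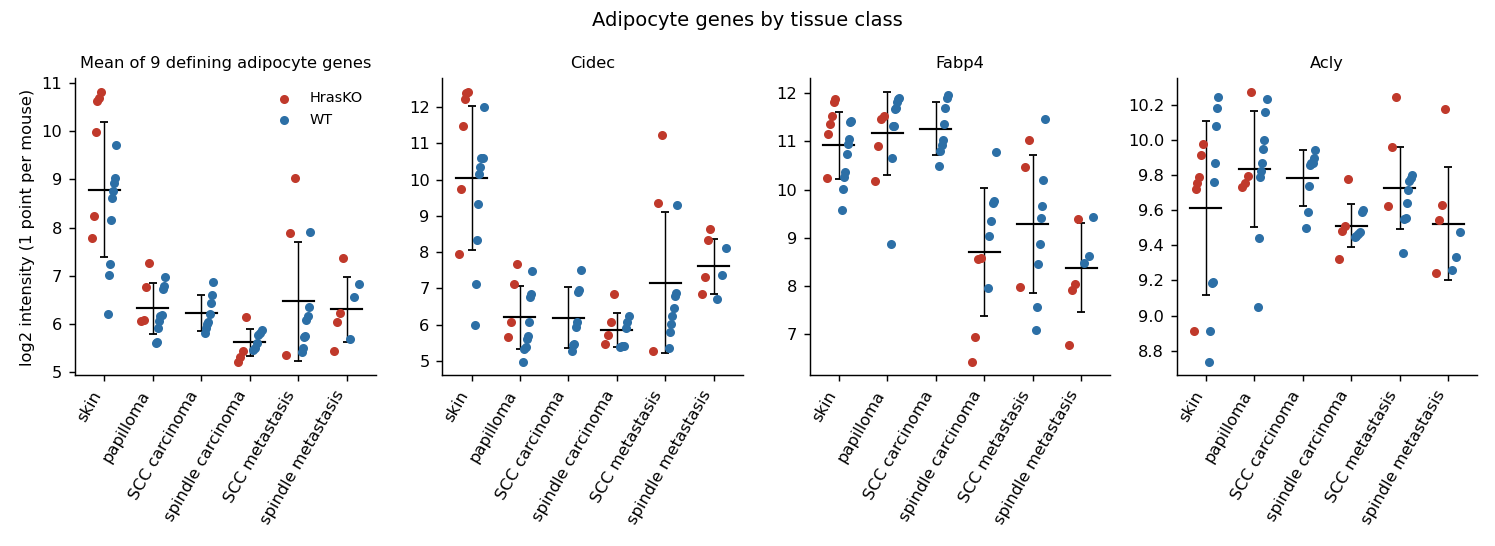
Log2 intensity (1 point per mouse, HrasKO in red and WT in blue; line and bar are mean and SD) of the mean of 9 defining adipocyte genes, Cidec, Fabp4 and Acly in skin, papilloma, SCC and spindle carcinoma and SCC and spindle metastasis. The defining genes were highest in skin (median 8.77), Fabp4 stayed high in papilloma and SCC carcinoma (medians 11.46 and 11.19), and Acly differed little between classes.

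SCC metastases, from 11 mice, had 21 members lower than skin and 0 higher (39.5% of all genes called, 16.5% lower and 23.1% higher). The median member difference was -1.41, against 0.07 for all genes. Plin4 (-2.86, SE 0.30, adjusted p = 2.73e-05), Pparg (-2.03, SE 0.22), Cd36 (-1.43), Mgll (-2.08), Adig (-2.59) and Me1 (-2.18) were lower in 11 of 11 mice. Adipoq fell by 1.75 (SE 0.56, adjusted p = 0.0256), with values between 3.60 and 9.05 (median 5.04) in the metastases, and Cidec by 2.32, with values between 5.27 and 11.23 (median 6.45). The spread between mice was wide for these 2 genes, since the metastases of mice 1616, 1706 and 1456 had defining gene means of 9.02, 7.89 and 7.91, and those of the other 8 mice lay between 5.35 and 6.34. Fabp4 fell by 1.41 (SE 0.40, adjusted p = 0.0154). Lipe (-0.11), Pnpla2 (-0.11), Acly (0.13), Agpat2 (0.38) and Angptl4 (0.26) were not called.

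The SCC metastasis versus skin count was 15 without mouse 2104 and at most 22 without any other mouse, and 17 in batch 1 alone. The Adipoq call was lost without 1664, 1706, 1984 or 2104 (adjusted p = 0.0518 to 0.0530). It was 11 with lymph node metastases alone, and also 11 without the arrays closer to another class. Plin4, Pparg, Adig, Mgll, Me1, Ces1d, Car3, Cebpa, Cd36 and Lgals12 were called in both of these sets. Adipoq was called in neither (adjusted p = 0.356 and 0.286). Among marker genes, 14 of 14 muscle markers were lower, 4 of 5 B cell, 6 of 8 lung and 5 of 9 macrophage markers higher, and 3 of 6 keratinocyte markers lower; their part in the result was not tested. Other adipocyte genes fell for 11 of 30 and rose for 2.

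Spindle metastases, from 7 mice, had 26 members lower than skin and 0 higher (42.3% of all genes called, 16.8% lower and 25.5% higher), with a median of -2.26 against 0.10 for all genes. The lower members fell in every mouse for 24 of the 26, a share that was not counted over all genes. Lgals12 averaged 5.06 ± 0.54 in spindle metastasis and 8.98 ± 1.03 in skin (-3.92, SE 0.36, adjusted p = 9.92e-05; SD, n = 7 each), and Fabp4 averaged 8.38 ± 0.92 in spindle metastasis and 11.21 ± 0.50 in skin (-2.82, SE 0.35). Each was without overlap, which was so for 12 members in all and for 17.8% of all genes. Ces1d (-3.74), Plin4 (-3.62), Retn (-3.58), Adig (-3.49), Aqp7 (-3.42), Lep (-3.14) and Me1 (-2.49) also fell. Calls for Agt and Pck1 were lost without mouse 1537 (adjusted p = 0.0925 and 0.0950), and each also without 1407, 1509, 1815 or 1984. In batch 1 alone 28 members were called. All 14 muscle and 6 keratinocyte markers were lower and 4 of 5 B cell markers higher. Other adipocyte genes fell for 14 of 30 and rose for 3.

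Against the carcinomas of the same mice, metastases differed in a few members only. In 8 mice, SCC metastases had Fabp4 lower and Pnpla2 higher than SCC carcinomas (4.55% of all genes called, 2.74% lower and 1.81% higher). Fabp4 averaged 9.09 ± 1.41 in metastasis and 11.26 ± 0.55 in carcinoma (-2.17, SE 0.37, adjusted p = 0.0155) and was lower in 8 of 8 mice. Pnpla2 averaged 9.58 ± 0.51 in metastasis and 8.49 ± 0.14 in carcinoma (1.09, SE 0.16, adjusted p = 0.0116) and was higher in 8 of 8. The comparison of spindle with SCC carcinomas uses the same SCC carcinomas. With lymph node metastases alone neither was called (Fabp4 -1.35, adjusted p = 0.120; Pnpla2 1.16, adjusted p = 0.108). B cell markers were higher for 3 of 5 (mean 6.09 to 9.45 over the 11 mice with SCC metastases, 4.60 to 5.87 in carcinomas), and 2 of 9 macrophage markers were higher; their part in the result was not tested.

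Spindle metastases and spindle carcinomas of 7 mice differed in 0 members and in 0% of genes, but 31 of 35 members had positive differences and 16 had an unadjusted p under 0.05, as did 2495 of all 18772 genes. The median difference was 0.49 for members and -0.01 for all genes. Gpd1 averaged 6.78 ± 0.83 in metastasis and 5.27 ± 0.72 in carcinoma (1.51, SE 0.13, adjusted p = 0.0662). Cidec averaged 7.61 ± 0.76 in metastasis and 5.85 ± 0.53 in carcinoma (1.76, SE 0.26, adjusted p = 0.220), and Lpl averaged 8.49 ± 1.00 in metastasis and 6.55 ± 0.94 in carcinoma (1.94, SE 0.36, adjusted p = 0.227). All 3 were higher in 7 of 7 mice. Gpd1 was called without mouse 1949 and without the arrays closer to another class (1.39). The medians of B cell (2.70) and lung markers (0.86) were higher and that of keratinocyte markers lower (-2.06) in the same comparison, with 0 of each called, and their part was not tested. Spindle and SCC metastases (7 and 11 mice) differed in 0 members and in 0.0693% of genes (0.0266% lower and 0.0426% higher). An unadjusted p under 0.05 was found for 6 members and for 3378 of all 18772 genes. Pcx (-0.84, SE 0.30) and Slc2a4 (-1.25, SE 0.45) had the lowest adjusted p (0.161 each), and 4 members, with Slc2a4 at -2.23, were called with lymph node metastases alone.

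Metastases of different sites were set against lymph node metastases of the same mice. Liver metastases, from 3 mice (1383, 1664 and 1815), had Agt at 11.82, 10.51 and 10.20, with a mean of 10.84 ± 0.86 and of 5.79 ± 0.36 in lymph node metastases of the same mice. Pck1 had 12.47, 10.16 and 8.47 and Cyp2e1 11.93, 11.25 and 8.84 in these liver metastases. With 3 pairs, 0 members and 0% of all genes passed the adjusted threshold and 10 members and 2180 of all 18772 genes had an unadjusted p under 0.05. The differences were 5.05 for Agt (SE 0.34, adjusted p = 0.117), 4.93 for Cyp2e1, 4.57 for Pck1, 3.22 for Ces1d, 3.12 for Pcx and 2.75 for Gpd1, each higher in 3 of 3 mice. These members are also genes of hepatocytes, and the mean of 10 liver markers was 11.73, 9.51 and 9.27 in the liver metastases and 4.03 to 4.54 in all lymph node metastases; its part in the result was not tested. The defining gene mean was 6.09, 5.28 and 6.99 in the liver metastases of mice 1383, 1664 and 1815. Their own lymph node metastases had 7.43 and 5.55 (1383), 5.09 and 6.64 (1664), and 6.17 and 5.45 (1815). Only in mouse 1815 was liver above both. All lymph node metastases had 5.09 to 9.67 (median 6.03).

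Lung metastases had defining gene means between 5.17 and 9.11 (median 5.66). Against lymph node metastases of 8 mice, 0 members and 0% of all genes were called. An unadjusted p under 0.05 was found for 5 members and for 1155 of all 18772 genes. Car3 averaged 6.22 ± 2.87 in lung and 9.48 ± 2.30 in lymph node metastasis and was lower in 8 of 8 mice, yet missed the threshold (-3.29, SE 1.12, adjusted p = 0.688). Ces1d went the other way, at 8.47 ± 2.02 in lung and 5.76 ± 1.51 in lymph node (2.54, SE 1.16, adjusted p = 0.854, higher in 6 of 8). The mean of 8 lung markers was 7.15 to 10.88 in 8 of the 10 lung metastases, 4.80 and 4.93 in the other 2, and 4.52 to 5.01 in lymph node metastases; its part was not tested. Me1 was called higher in lung with single arrays as the units (1.39).

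Thymus and spleen metastases, from 3 mice each, had 0 members called against lymph node metastases (1 member in thymus and 10 in spleen at an unadjusted p under 0.05, where 446 and 2441 of all 18772 genes had one; 0% of all genes called each). The defining gene mean was 6.08, 7.12 and 8.89 in thymus metastases and 5.16, 5.50 and 5.64 in spleen metastases. In spleen metastases Adipoq (-1.76, SE 0.42, adjusted p = 0.310) and Lep (-1.60, SE 0.34, adjusted p = 0.294) were lower in 3 of 3 mice. The single kidney metastasis had a defining mean of 8.72 and the dorsal one 6.10.

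Ucp1, the brown fat protein, was near the bottom of the array's range outside metastases, at 3.63 to 5.27 in all 67 arrays of skin, papilloma and carcinoma. It was above this range in 7 of the 45 metastasis arrays, from 5 mice. The lung SCC metastasis of mouse 1616 had 10.91, a lymph node SCC metastasis of 1706 had 9.72 and another 8.31. The thymus metastasis of mouse 1456 had 7.76 and its lymph node metastasis 7.62, a lung spindle metastasis of 1509 had 6.44 and a lymph node metastasis of 1717 had 6.42. The brown fat genes Cidea and Cox8b were at 10.35 and 11.37 in the array with the highest Ucp1, and at 9.85 and 10.76 in the next. In the array of mouse 1717 they were at 5.78 and 5.92, with a defining gene mean of 5.90.

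The metastases with the most Ucp1 also had high means of the defining genes, but the reverse did not hold. This mean does not separate white from brown adipocytes, which share most of the program. The defining gene mean was 9.11 in the lung metastasis of mouse 1616 and 8.72 to 9.67 in the metastases of 1706 and 1456 just named. It was as high in a lymph node metastasis of mouse 1616 (8.93), a spindle one of mouse 1949 (9.42) and the kidney metastasis of mouse 1815 (8.72), in which Ucp1 was 3.82, 4.03 and 3.84.

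**Figure D5:**
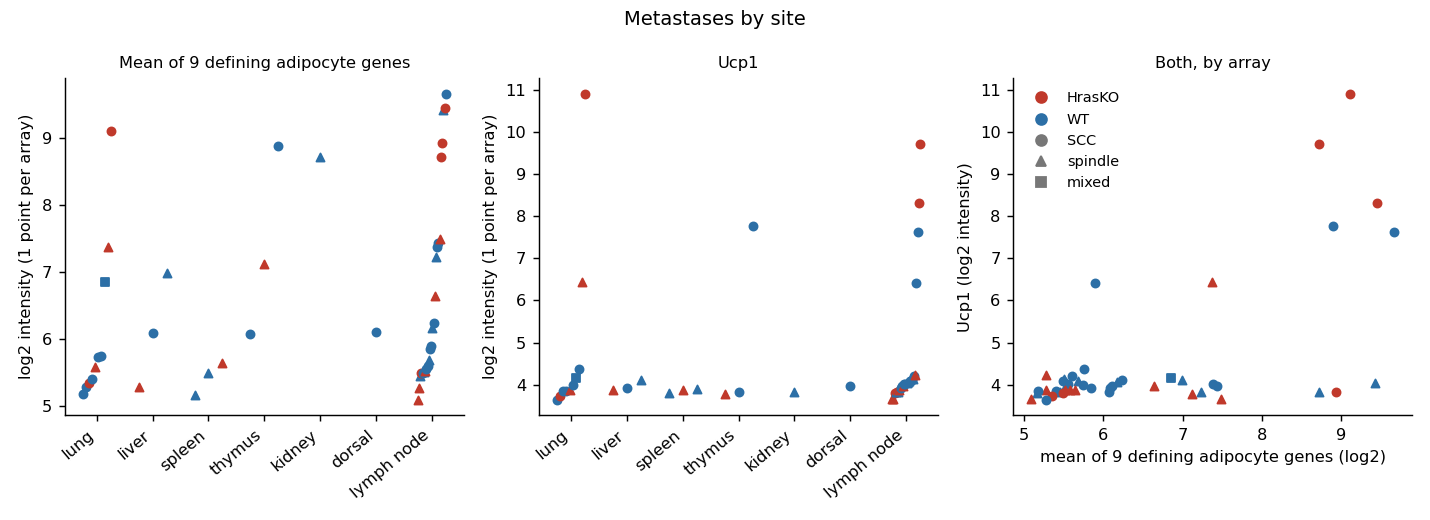
Left and middle: log2 intensity per metastasis array of the mean of 9 defining adipocyte genes and of Ucp1, by site; right: both values for each array (HrasKO red, WT blue; circle SCC, triangle spindle, square mixed). Ucp1 was above 5.27, the highest value outside metastases, in 7 arrays, of which 5 also had defining gene means above 8.7.

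Between HrasKO and WT skins, 0 members passed the adjusted threshold (limma with batch as a covariate, 6 and 9 mice; 0.00533% of all genes called). All 35 differences were positive, with a median of 0.86 against 0.00 for all genes, and 20 had an unadjusted p under 0.05, as did 2062 of all 18772 genes. The defining gene mean ran between 7.78 and 10.82 (median 10.31) in HrasKO skins and between 6.21 and 9.71 (median 8.61) in WT skins, so the groups overlapped. Pparg ran between 10.09 and 10.87 in HrasKO skins and between 8.85 and 10.20 in WT skins (0.97, SE 0.21, adjusted p = 0.260). Aqp7 ran between 7.36 and 10.81 in HrasKO skins and between 4.30 and 8.76 in WT skins (2.83, SE 0.75, adjusted p = 0.260). Adipoq differed by 2.19 (SE 0.84, adjusted p = 0.357). The muscle marker mean was 9.21 to 11.29 in HrasKO skins and 5.01 to 11.04 in WT skins, with a median marker difference of 1.94 and 0 of 14 called; its part in the result was not tested. Other adipocyte genes had a median difference of 0.19.

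In papillomas of the 2 genotypes (4 and 9 mice), 0 members and 0.00533% of all genes were called, with a median member difference of 0.18. An unadjusted p under 0.05 was found for 0 members and for 959 of all 18772 genes. The change between skin and papilloma was more negative in HrasKO mice for 33 members (median -1.10, against -0.02 for all genes), and 0 members and 0% of all genes were called (11 members and 1419 of all 18772 genes at an unadjusted p under 0.05). Aqp7 changed by -4.70 ± 1.19 in HrasKO mice and by -1.37 ± 1.60 in WT mice (difference -3.38, SE 0.88, adjusted p = 0.585). Skins enter both this comparison and that of skins between genotypes.

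In spindle carcinomas of 4 HrasKO and 6 WT mice, 0 members were called (0% of all genes). Fabp4 alone among the members had an unadjusted p under 0.05, as did 626 of all 18772 genes. Fabp4 averaged 7.64 ± 1.11 in HrasKO and 9.44 ± 0.93 in WT carcinomas (-2.11, SE 0.62, adjusted p = 0.991, limma). In spindle metastases (4 and 3 mice), 0 members and 0% of all genes were called. There, 0 members and 394 of all 18772 genes had an unadjusted p under 0.05.

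In SCC metastases of 3 HrasKO and 8 WT mice, 0 members were called (0.154% of all genes, 0.107% lower and 0.0479% higher), 34 differences were positive (median 1.05, against -0.01 for all genes), and 5 members and 2369 of all 18772 genes had an unadjusted p under 0.05. Lpl averaged 10.50 ± 0.29 in HrasKO and 8.15 ± 1.23 in WT metastases (2.05, SE 0.61, adjusted p = 0.216). In batch 1 alone, with 2 HrasKO mice (1616 and 1706) and 7 WT mice, 9 members were higher in HrasKO: Adipoq (3.32), Plin1 (3.65), Plin4 (2.27), Cidec (4.08), Retn (2.85), Aqp7 (3.23), Thrsp (3.20), Ucp1 (3.20, adjusted p = 0.00293) and Adig (2.15). This set leaves out WT mouse 1456 and HrasKO mouse 1664. Their defining gene means were 7.91, the highest of the WT mice, and 5.35, the lowest of either genotype. Those of 1616 and 1706 were 9.02 and 7.89. Leaving out only mouse 1456 or only mouse 1664 gave the same fitted values, because the batch covariate then takes up the 1 batch 2 mouse that is left. Keratinocyte markers had a median difference of -3.08, B cell markers of 1.56 and brown fat genes of 0.78, with 0 of each called over all mice, and their part was not tested.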

How the data were processed

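The deposited values were log2 intensities of 28204 probe sets on 112 arrays, made by the authors with RMA per the submitters' processing notes; the sources used here give neither its version nor any batch correction. Values ran from 2.10 to 13.9, with array medians of 5.89 to 6.36, and the number of arrays limits the precision. Probe sets were named through the platform annotation: 21141 had 1 symbol, 1881 several and 5182 none, and only the first kind was used. For 1367 genes with several probe sets, Lipe and Me1 among the members, that with the highest mean was kept, which left 18772 genes. All sample columns were used, and some genes were not analysed here.

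Values were averaged per mouse and group, and mixed tumours were left out of the histology comparisons. Samples with the same number come from the same mouse, so comparisons within mice carried mouse as a fixed block. Mouse was a random block between spindle and SCC tumours (duplicateCorrelation, with a genotype covariate for the metastases), batch was a covariate between genotypes, and histology one between lung and lymph node. Fits used lmFit and eBayes of limma 3.58.1 in R 4.3.3 on all genes, two-sided, with Benjamini-Hochberg adjustment over all genes and a threshold of 0.05, after a test on simulated data. By the labels, batch 1 covered 13 mice (95 arrays), and batch 2 only mice 1456 and 1664 (17 arrays), too few for values of its own.

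Every member could be named; the defining members came first, then the 10 largest differences of a comparison, the 10 genes most like the defining mean in skin, and called genes of the list of other adipocyte genes. Marker lists were brown fat, skeletal muscle, sebocyte, hair follicle, endothelial, macrophage, fibroblast, lung, liver, kidney, thymus, B cell and keratinocyte. The members, lists and tests were chosen with earlier results of these data known. Alternatives were single arrays (mouse as random block), averaging of a gene's probe sets, a filter that asked for 8 or more arrays over the median of all values, trended robust eBayes, repeated quantile normalization, batch 1 alone, no mouse, batch or histology term, a fixed instead of a random block, both genotypes together, lymph node metastases alone, carcinomas titled RegCA left out, arrays closer to another class left out, and each mouse left out.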

Additional observations from a re-analysis of the deposited data

Results flagged for a closer look

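Of 108 combinations of a gene or gene mean and a group of 4 to 10 mice, in 9 groups, 15 held a mouse far from the others. The rule flags about 1 in 20 of independent, normally distributed sets of values. These combinations share genes and mice, so that rate cannot be set against the 15 flags. The flags came from 3 mice. In WT SCC metastases (8 mice), mouse 1456 stood above the rest for 8 values: Adipoq was 7.49 (next 5.81), Plin1 7.84 (5.88), Cidec 9.31 (6.86), Retn 7.26 (5.58), Adig 5.05 (4.04) and Ucp1 6.41 (4.94). The mean of the 9 defining genes was 7.91 there (next 6.34) and that of all measured members 8.12 (next 7.07). The metastases of mouse 1456 differed among themselves. Their defining gene mean was 9.67 in lymph node, 8.89 in thymus and 5.17 in lung. Ucp1 was at 7.62, 7.76 and 3.86, in the same order.

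Mouse 1509, HrasKO, stood above the other 3 mice of its group in 6 values. In papilloma its Ucp1 was 4.76 (next 4.13). In spindle carcinoma its Retn was 6.33 (next 4.84) and its Adig 4.22 (next 3.70). In spindle metastasis its Lipe was 10.20 (next 8.83), its Adig 4.24 (next 3.60) and its Ucp1 6.44 (next 4.05). Mouse 1815 had the lowest Fabp4 among 9 WT papilloma mice, at 8.87 (next 10.66); the keratinocyte marker mean of its papillomas was 5.40.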

How the results depend on the processing

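For members called in the main fits, values were recomputed under the alternatives. Of these values, 2396 stayed called, 194 were no longer called and 0 turned direction. Members not called in a main fit are not in these counts. Counts of called members moved by more than 1.5 times in the following cases. SCC metastasis versus skin (21) gave 11 with lymph node metastases alone and 11 without the arrays closer to another class. Spindle carcinoma versus papilloma (6) gave 2 in batch 1 alone, 13 without the arrays closer to another class and 0 without carcinomas titled RegCA. Spindle versus SCC carcinoma (2) gave 1 in batch 1 alone and 9 with both genotypes together. SCC metastasis versus SCC carcinoma (2) gave 0 with lymph node metastases alone, and spindle metastasis versus spindle carcinoma (0) gave 1 without the arrays closer to another class. Spindle versus SCC metastasis (0) gave 2 with single arrays, 2 without the arrays closer to another class and 4 with lymph node metastases alone. With single arrays, lung versus lymph node metastasis (0) gave 1 and liver versus lymph node metastasis (0) gave 6. HrasKO versus WT SCC metastasis (0) gave 9 in batch 1 alone. The cause was not tested.

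Leaving out 1 mouse gave 27 to 30 called members in papilloma versus skin, 20 to 26 in SCC carcinoma versus skin, 29 in every case in spindle carcinoma versus skin, 15 to 22 in SCC metastasis versus skin, 24 to 28 in spindle metastasis versus skin, 0 to 1 in SCC carcinoma versus papilloma, 2 to 10 in spindle carcinoma versus papilloma, 0 to 7 in spindle versus SCC carcinoma, 2 to 3 in SCC metastasis versus SCC carcinoma, 0 to 1 in spindle metastasis versus spindle carcinoma, 0 to 9 in HrasKO versus WT SCC metastasis and 0 in the other comparisons.

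The pairing of tumours and skins by mouse moved no count by over 1.5 times in the comparisons that carried it. With no replicate block, 29 members were called in papilloma versus skin, 25 in SCC carcinoma versus skin, 29 in spindle carcinoma versus skin, 17 in SCC metastasis versus skin, 26 in spindle metastasis versus skin and 7 in spindle carcinoma versus papilloma. With the fixed replicate block in mice with both tumours, spindle versus SCC carcinoma gave 0. Leaving out the arrays closer to another class could not be run for the 4 comparisons with SCC carcinomas, because too few mice were left. The same held for batch 1 alone for thymus. A shared histology for lung was not run for another reason. Histology did not vary within the mice kept, so its term could not be fitted beside mouse.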
